A study of Mus musculus with 4 samples.

Results

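The genes described here are the transporters of amino acids and small peptides, chosen by gene name. They are the mouse genes whose whole symbol is Slc, one of the family numbers 1, 3, 6, 7, 15, 36, 38 or 43, the letter a and a final number. Of 38124 gene IDs in the deposited tables, 66 met this rule, 52 of them were detected, and 34 reached 20 counts in 2 or more libraries and were tested. RNA was sequenced from sorted intestinal cells of C57BL/6 male mice aged 71 weeks, in 4 libraries. GFP-high cells, which the labels call intestinal stem cells, came from mice on a high-fat diet (HFD) and from mice on the control diet, and so did GFP-low cells, which the labels call progenitors. Each library was made from cells pooled over 2 to 5 mice, so no group has a replicate, and diet cannot be told apart from other differences between the pools. The labels give neither the gene that drives GFP nor the make-up of the diets, and do not say whether the fractions of a diet share mice.

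Dietary protein reaches the small intestine as free amino acids and short peptides, which carriers in the brush border take up with sodium, protons or in exchange for other amino acids. Other carriers in the basolateral membrane pass the amino acids on to the blood. Several of these are pairs of a light chain of the Slc7 family, which carries the substrate, and a heavy chain of the Slc3 family, which brings it to the membrane. Dividing cells use a partly different set, which brings in glutamine, leucine, arginine and cystine for growth.

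The libraries held 6207080 counts (HFD) and 5201394 counts (control) in GFP-high, and 5327015 (HFD) and 4677389 (control) in GFP-low. Values are given in CPM, counts scaled to library size by TMM. A gene with 0 counts may reach a level of 0.452 to 0.681 CPM, the worth of 3 counts, and such limits and all intervals below cover counting error only. The 15 stem cell markers examined, Lgr5 among them, summed to 10471 CPM (HFD) and 11779 CPM (control) in GFP-high, against 1844 CPM (HFD) and 2521 CPM (control) in GFP-low. The 16 enterocyte markers summed to 1552 CPM (HFD) and 1189 CPM (control) in GFP-high, against 9297 CPM (HFD) and 4720 CPM (control) in GFP-low, so RNA of absorptive cells was more abundant in the cells labelled progenitors. The 9 goblet cell markers summed to 3241 and 3660 CPM in GFP-high, against 17986 and 40927 CPM in GFP-low (HFD and control in each). In bulk RNA, fewer cells of a type and less RNA per cell cannot be told apart.

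Promoter sequence from RefSeq (build GRCm38.p6) was at hand for 26 of the 34 tested transporters, in 38 windows that hold the 250 bases before an annotated start. They were searched on both strands for the letters of binding motifs of regulators of crypt and absorptive cells. CTTTGAT, a TCF/LEF motif of Wnt signalling, stood in 4 of the 38 windows, against 3.21% of 32536 windows of the same length over all genes. These windows belong to Slc1a2, Slc38a10, Slc38a9 and Slc7a1. In the fraction comparison below, Slc1a2 was higher in GFP-high, Slc38a10 was lower, and Slc38a9 and Slc7a1 did not pass the test. CAAAGTC, a motif of HNF4 nuclear receptors, stood in 2 windows, against 3.87% of all windows, and TGATGNAA, the amino acid response element, in 2 windows of the single gene Slc7a7, against 3.40%. TTTATGG, a CDX2 motif, and the direct repeat bound by PPAR receptors matched in 0 of the 38 windows, against 2.45% and 0.341% of all windows. CTTTGAT and CAAAGTC share the letters CTTTG when one is read on the other strand, but no window held both. A match is a string of letters, not a shown binding site. One window each is printed for Slc1a2, the transporter with the largest ratio towards GFP-high, and Slc3a1, the heavy chain of the brush border cystine carrier, which was higher in GFP-low. Both read 5′ to 3′ on the plus strand, with the match in capitals: the TCF/LEF letters on the other strand in Slc1a2 (chr2:102706188-102706437, inside the GENCODE interval of the gene) and the HNF4 letters in Slc3a1 (chr17:85028097-85028346).
Slc1a2: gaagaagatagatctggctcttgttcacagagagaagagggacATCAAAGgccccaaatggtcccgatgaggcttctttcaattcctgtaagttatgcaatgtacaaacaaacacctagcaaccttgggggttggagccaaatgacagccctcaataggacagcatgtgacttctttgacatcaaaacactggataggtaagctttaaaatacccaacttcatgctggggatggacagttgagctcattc
Slc3a1: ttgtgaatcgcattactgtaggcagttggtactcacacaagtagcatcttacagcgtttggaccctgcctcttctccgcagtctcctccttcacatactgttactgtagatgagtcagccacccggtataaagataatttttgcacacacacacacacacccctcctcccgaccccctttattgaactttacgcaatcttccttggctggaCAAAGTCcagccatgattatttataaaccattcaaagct

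The first comparison was of the fractions. Most tested carriers of the brush border and the basolateral membrane were lower in GFP-high, and a smaller set was higher, with Slc1a2, Slc38a4, Slc7a2 and Slc7a5 at least 2-fold. Counts were scaled by TMM, and edgeR fitted diet and fraction together on all 4 libraries. A gene is called changed when the edgeR quasi-likelihood adjusted p, taken over all 10694 genes tested, was under 0.05. Of the 34 transporters tested, 9 rose and 16 fell in GFP-high against GFP-low, beside 21.4% and 24.8% of all genes tested. Changes of at least 2-fold made up 4 of the 9 and 12 of the 16. Slc38a4 among the 4, and Slc6a19, Slc15a1 and Slc36a4 among the 12, passed the filter only through the fraction where they were high. The median log2 ratio was 0.04 over the transporters and 0.00 over all genes, and single members lay between -4.65 and 3.50. The transporter median was 0.23 with library totals and -0.44 with no filter on low counts. Scaling by library totals moved the median of all genes to 0.19 and changed the split to 12 higher and 15 lower transporters, and to 3639 higher and 1931 lower genes in place of 2291 and 2649.

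**Figure D1:**
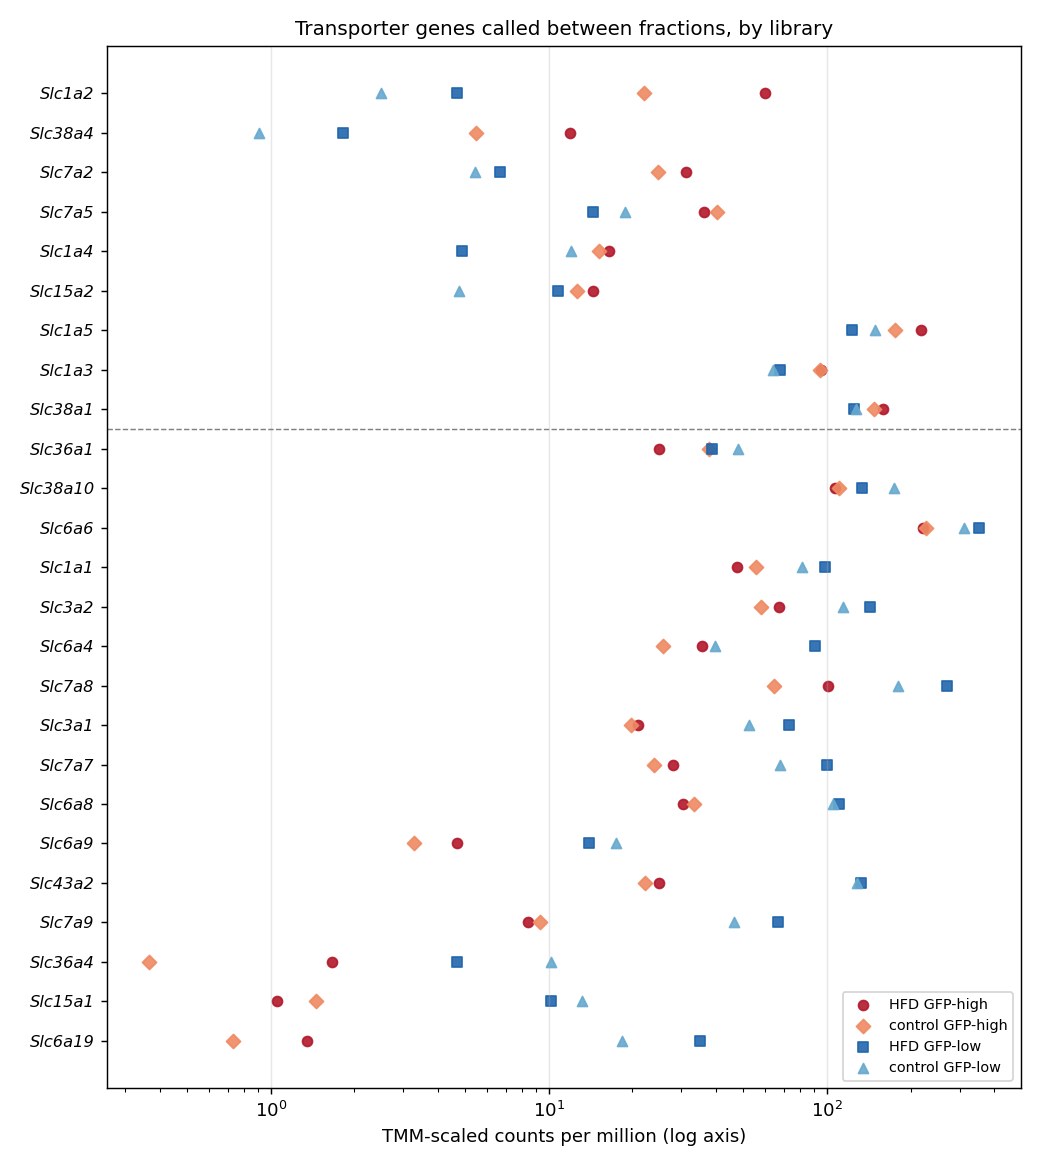
Level of each of the 25 transporter genes called between fractions in the 4 libraries, as TMM-scaled CPM on a log axis, ordered by log2 ratio; the dashed line parts the 9 genes higher in GFP-high from the 16 lower ones. In all 25 rows both GFP-high points lie on one side of both GFP-low points. The genes were chosen by the call on these same libraries, so this adds no support to the calls.

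Among the brush border carriers, 6 of the 7 tested fell in GFP-high and 1 rose. Slc6a19, the main sodium-coupled carrier of neutral amino acids of the brush border, had 1.36 CPM (HFD) and 0.729 CPM (control) in GFP-high, against 35.1 CPM (HFD) and 18.4 CPM (control) in GFP-low. It was 25.1-fold lower in GFP-high (log2 ratio -4.65 ± 0.31 SE) with an edgeR adjusted p of 1.31e-06. Its counts in GFP-high were only 9 and 4, and it passed the filter only through GFP-low. Slc15a1, the proton-coupled carrier of short peptides, had 1.05 and 1.46 CPM in GFP-high (HFD and control), against 10.2 and 13.2 CPM in GFP-low. Slc15a1 fell 9.15-fold in GFP-high (edgeR adjusted p 5.07e-05), and it also passed the filter only through GFP-low. HFD was below control in both fractions, by 7 counts against 8 in GFP-high and 50 against 58 in GFP-low. The counting intervals of both log2 diet ratios included 0 (-2.16 to 1.19 and -0.95 to 0.20).

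The cystine and cationic amino acid carrier of the brush border is a pair of Slc7a9, the light chain, and Slc3a1, the heavy chain, and mutations of either cause cystinuria. Slc7a9 had 8.44 and 9.30 CPM in GFP-high (HFD and control), against 67 and 46.3 CPM in GFP-low, a fall of 6.40-fold (edgeR adjusted p 1.66e-06). Slc3a1 had 20.9 and 19.7 CPM in GFP-high (HFD and control), against 73.3 and 52.7 CPM in GFP-low, a fall of 3.09-fold (edgeR adjusted p 9.62e-06). The light chain thus stood further apart between the fractions than the heavy chain. Per kilobase of exon, the ratio of Slc7a9 to Slc3a1 was 0.342 (HFD) and 0.401 (control) in GFP-high, against 0.776 (HFD) and 0.746 (control) in GFP-low. The last exons of Slc3a1 overlap 601 bases of Prepl on the other strand, and whether the counting used strand is not given in the sources used here.

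Slc1a1, a carrier of glutamate and aspartate, had 47.5 and 55.6 CPM in GFP-high (HFD and control), against 98.5 and 81.5 CPM in GFP-low. It fell 1.75-fold, which passed the test (edgeR adjusted p 0.000704), and 2631 of its 8257 exon bases overlap 4430402I18Rik on the other strand. Slc36a1, a proton-coupled carrier of small neutral amino acids found at the brush border and in lysosomes, had a log2 ratio of -0.48 (edgeR adjusted p 0.0153), and that call was lost with library totals, with DESeq2 and without diet in the model. Slc15a2, a peptide carrier known mainly from kidney, was the exception among the brush border group and rose 1.76-fold (edgeR adjusted p 0.0374). It had 14.5 and 12.6 CPM in GFP-high (HFD and control), against 10.8 and 4.77 CPM in GFP-low, so the control GFP-low library stood lowest, and the call was lost with DESeq2 and without diet in the model. Slc6a14 and Slc36a2 had 1 count each in all libraries together, and Slc36a3 had 0.

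Among the exchangers of the basolateral membrane and their heavy chain, 4 of 6 fell in GFP-high and 1 rose. Slc3a2, the heavy chain shared by most of these light chains, had 67.5 and 58.0 CPM in GFP-high (HFD and control), against 143 and 114 CPM in GFP-low, a fall of 2.05-fold (edgeR adjusted p 2.63e-05). Its light chains divided. Slc7a8, which exchanges neutral amino acids, fell 2.71-fold (edgeR adjusted p 1.61e-06), with 101 and 64.7 CPM in GFP-high (HFD and control), against 269 and 180 CPM in GFP-low. Slc7a7, which releases arginine and lysine to the blood, fell 3.24-fold (edgeR adjusted p 4.22e-06), with 27.9 and 23.9 CPM in GFP-high (HFD and control), against 100.5 and 68.1 CPM in GFP-low. Its exons share 232 bases with Oxa1l on the other strand.

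Slc7a5, the leucine carrier of growing cells, went the other way. It had 36.2 CPM (HFD) and 40.3 CPM (control) in GFP-high, against 14.4 CPM (HFD) and 18.8 CPM (control) in GFP-low, a rise of 2.31-fold in GFP-high (edgeR adjusted p 0.000123). Slc7a6, a close relative of Slc7a7, was not called between fractions (log2 ratio 0.28 ± 0.20 SE, edgeR adjusted p 0.265). Per kilobase, the ratio of Slc7a8 to Slc7a5 was 2.07 (HFD) and 1.19 (control) in GFP-high, against 13.85 (HFD) and 7.07 (control) in GFP-low. The ratio of Slc7a5 to its heavy chain Slc3a2 was 0.510 and 0.661 in GFP-high (HFD and control), against 0.0961 and 0.157 in GFP-low. Slc43a2, a carrier of branched-chain amino acids that works without a heavy chain, had 24.9 and 22.2 CPM in GFP-high (HFD and control), against 133 and 128 CPM in GFP-low. This was a fall of 5.53-fold (edgeR adjusted p 1.79e-07), with both diets close to each other in each fraction.

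**Figure D2:**
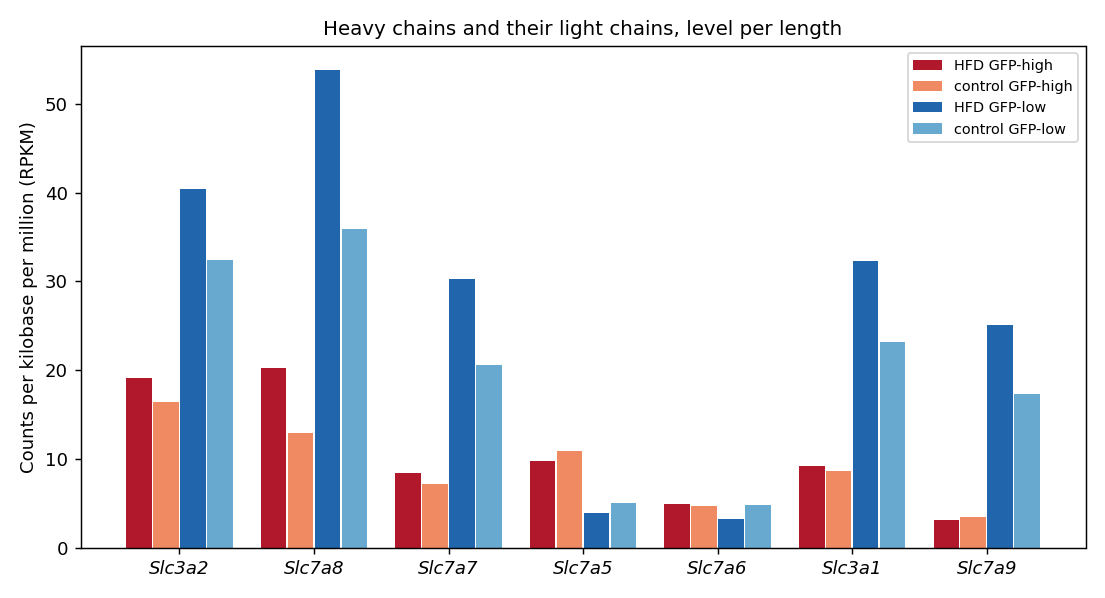
Level per exon length (RPKM) of the heavy chain Slc3a2 with 4 of its light chains and of the heavy chain Slc3a1 with its light chain Slc7a9; each bar is 1 library. Slc7a8 stands at 53.8 and 35.9 RPKM in GFP-low (HFD and control) and Slc7a5 at 3.89 and 5.08 RPKM, while in GFP-high they stand at 20.2 and 12.9 RPKM and at 9.75 and 10.9 RPKM.

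Of the 3 tested glutamate carriers, Slc1a2 and Slc1a3 rose in GFP-high, while Slc1a1 of the brush border fell. Slc1a2 (ENSMUSG00000005089, GRCm38 chromosome 2, 102658659 to 102790784), the high-affinity glutamate carrier best known from astrocytes, had 59.8 CPM (HFD) and 22.1 CPM (control) in GFP-high, against 4.67 CPM (HFD) and 2.50 CPM (control) in GFP-low. Its ratio of 11.3-fold was the highest of the 34 transporters (log2 3.50 ± 0.22 SE) and had an edgeR adjusted p of 9.42e-07. The counts behind it were 397 and 121 in GFP-high, against 23 and 11 in GFP-low. Slc1a3, another glutamate carrier of glia, was at 95.1 and 94.6 CPM in GFP-high (HFD and control), against 68.0 and 64.0 CPM in GFP-low. That rise of 1.44-fold was called (edgeR adjusted p 0.00263), but not by DESeq2.

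Of the carriers of arginine and lysine, 1 of 3 tested rose. Slc7a2, the arginine carrier known from macrophages and liver, had 31.2 and 24.6 CPM in GFP-high (HFD and control), against 6.70 and 5.45 CPM in GFP-low, 4.58-fold more (edgeR adjusted p 1.47e-05). Leukocyte markers summed to 94.2 and 118 CPM in GFP-high (HFD and control), against 48.1 and 81.5 CPM in GFP-low. Only 3 of these 15 markers had enough counts to be tested, 2 higher and 1 lower in GFP-high. Cd14 (log2 ratio 1.39 ± 0.25 SE, edgeR adjusted p 0.000989) and Lcp1 (1.33 ± 0.17 SE, edgeR adjusted p 0.000105) were higher. Itgam was lower (-1.23 ± 0.20 SE, edgeR adjusted p 0.000563). Lcp1 alone had 75.3 and 73.3 CPM in GFP-high (HFD and control). Ptprc and Cd4, which mark leukocytes and helper T cells, had 0 counts in every library. Slc7a1, the widely expressed arginine carrier, lay between 191 and 230 CPM in all 4 libraries and was not called (log2 ratio 0.04 ± 0.11 SE, edgeR adjusted p 0.801). Slc7a4, a relative with no settled substrate, had a log2 ratio of 0.08 ± 0.18 (SE).

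Carriers of glutamine and other small neutral amino acids rose in 4 of 6 cases. Slc38a4, a sodium-coupled carrier of the system A kind, had 11.9 CPM (HFD) and 5.47 CPM (control) in GFP-high, against 1.83 CPM (HFD) and 0.908 CPM (control) in GFP-low, and its counts in GFP-low were 9 and 4. Its rise in GFP-high was 6.26-fold (edgeR adjusted p 0.000293), and the gene passed the filter only through GFP-high. Slc1a5, the glutamine exchanger of dividing cells, was the transporter with the highest mean level per length, 39.9 RPKM. It had 218 and 176 CPM in GFP-high (HFD and control), against 123 and 149 CPM in GFP-low, 1.45-fold more in GFP-high (edgeR adjusted p 0.00729). Slc1a4, its closest relative and a carrier of serine and alanine, rose 1.95-fold (edgeR adjusted p 0.0280). Slc38a1, another glutamine carrier, rose 1.22-fold (edgeR adjusted p 0.0363) and was not called without the filter on low counts. The calls of Slc1a5, Slc1a4 and Slc38a1 were lost with DESeq2 and without diet in the model. Slc38a2, the system A carrier that cells raise on amino acid shortage, lay between 147 and 155 CPM in every library and was not called (log2 ratio 0.05 ± 0.10 SE).

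The carriers of lysosomes and other inner membranes held 5 tested genes, of which 2 fell in GFP-high and 3 were not called. Slc36a4, a carrier of proline and tryptophan, had 11 and 2 counts in GFP-high (HFD and control), against 23 and 45 counts in GFP-low. It fell 6.53-fold (edgeR adjusted p 0.00287) and passed the filter only through GFP-low. Slc38a10, whose substrates include glutamine, had a log2 ratio of -0.49 (edgeR adjusted p 0.00415), a call lost with DESeq2 and without diet in the model. Slc38a7, the lysosomal glutamine carrier, Slc38a9, the arginine sensor of the mTORC1 pathway, and Slc15a4, a lysosomal carrier of histidine and peptides, had log2 ratios of 0.37 ± 0.17, 0.29 ± 0.21 and 0.04 ± 0.19 (SE).

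Of the carriers of taurine, creatine, glycine, proline and serotonin, 4 of 5 tested fell in GFP-high. Slc6a8, the creatine carrier, had 30.3 and 33.2 CPM in GFP-high (HFD and control), against 111 and 105 CPM in GFP-low, a fall of 3.40-fold (edgeR adjusted p 1.61e-06). Slc6a9, a glycine carrier, had 4.67 and 3.28 CPM in GFP-high (HFD and control), against 14.0 and 17.5 CPM in GFP-low. It fell 3.88-fold (edgeR adjusted p 0.000392), and 1986 of its 5141 exon bases lie over genes on the other strand, B4galt2 among them. Slc6a6, the taurine carrier, was abundant in every library, with 221 and 227 CPM in GFP-high (HFD and control), against 352 and 312 CPM in GFP-low. Its fall of 1.48-fold passed the test (edgeR adjusted p 0.000963). Slc6a4, the serotonin carrier with which absorptive cells clear serotonin, fell 2.06-fold (edgeR adjusted p 0.000523), a call that was lost without diet in the model. Slc6a7, a proline carrier known from brain, was not called (log2 ratio 0.59 ± 0.26 SE, edgeR adjusted p 0.0812).

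Within each diet the fractions were also set side by side with 1 library each and no test, counting genes at least 2-fold apart (0.5 CPM added to each value) with at least 5 CPM in the higher library. Under HFD 5 transporters were higher and 12 lower in GFP-high by this rule, beside 6.11% and 8.40% of all genes. Under the control diet 5 were higher and 10 lower, beside 5.27% and 8.57% of all genes. Slc1a2, Slc38a4, Slc7a2 and Slc7a5 were on the higher side under both diets. Slc1a4 was counted under HFD with a log2 ratio of 1.66, against 0.32 under control, and Slc15a2 under control with 1.31, against 0.41 under HFD. The direction of these ratios matched the sign of the joint fit for every called transporter. Both come from the same libraries, and a gene whose diets disagreed would hardly be called, so the match is no check of the calls.

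Transporters outside the naming rule and other proteins that work with them formed a list of 14 tested partners, of which 1 rose and 8 fell in GFP-high (DESeq2 called 0 higher and 5 lower). Over all genes, edgeR called 21.4% higher and 24.8% lower, which is also the background for the peptidase and amino acid response counts below. Slc6a20a, the brush border proline carrier, had 42 and 20 counts in GFP-high (HFD and control), against 398 and 202 in GFP-low (log2 ratio -3.66 ± 0.17 SE, edgeR adjusted p 1.60e-07). Slc16a10, a carrier of aromatic amino acids, was the partner that rose (log2 ratio 0.44 ± 0.12 SE, edgeR adjusted p 0.0122).

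Of 19 tested peptidases, which cut peptides at the brush border or in the cell, 15 fell in GFP-high and 0 rose by edgeR, with 0 higher also at an unadjusted p under 0.05 and by DESeq2. Their median log2 ratio was -1.33. Enpep, the aminopeptidase for acidic residues, had 114 and 56 counts in GFP-high (HFD and control), against 1666 and 1108 in GFP-low. Of 28 tested genes of the amino acid response, which the factor Atf4 drives on amino acid shortage, 4 rose and 14 fell, with a median log2 ratio of -0.36 (DESeq2 called 2 higher and 9 lower). Ddit4, an inhibitor of mTORC1, had 499 and 415 counts in GFP-high (HFD and control), against 170 and 128 in GFP-low (log2 ratio 1.24 ± 0.13 SE, edgeR adjusted p 2.75e-05). Shmt2, a mitochondrial enzyme of serine use, rose as well (0.75 ± 0.11 SE on the log2 scale, edgeR adjusted p 0.000249). Atf4 itself fell (log2 ratio -0.69 ± 0.09 SE, edgeR adjusted p 0.000202). The largest falls among the 28 were those of Gpt2 (-2.48 ± 0.28 SE, edgeR adjusted p 4.74e-05) and Nupr1 (-2.48 ± 0.39 SE, edgeR adjusted p 0.000443). Nupr1 had 17 and 13 counts in GFP-high (HFD and control), against 39 and 99 in GFP-low, and passed the filter only through GFP-low.

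The diets were compared next, over both fractions in the same fit. Under HFD 3 of the 34 transporters rose, beside 2.15% of all genes tested, and 0 fell by edgeR, beside 2.93% of all genes. At an unadjusted p under 0.05, 8 transporters were higher and 1 was lower, beside 2118 of 10694 genes in either direction. The median log2 ratio for diet was 0.04 over the transporters and 0.01 over all genes. The 3 that rose were Slc1a2, Slc7a8 and Slc6a4. DESeq2's Wald test called 0 of the 34 in either direction, beside 189 of all 10694 genes. It had 3 of the 34 at an unadjusted p under 0.05, beside 626 of all genes. The edgeR model without fraction called 0 of the 34, with 0 at that level, and also called 0 of all 10694 genes. Its result therefore says nothing particular about the transporters. The p-values here reflect how far these libraries vary, possibly for technical reasons, and are too low if one set of mice gave both fractions of a diet.

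Slc1a2 was higher under HFD in each fraction, with 59.8 CPM under HFD against 22.1 CPM under control in GFP-high, and 4.67 against 2.50 CPM in GFP-low. The joint ratio was 2.58-fold (log2 1.37 ± 0.19 SE) with an edgeR adjusted p of 0.00209, and DESeq2 gave an adjusted p of 0.0640. Within GFP-high alone the log2 ratio was 1.42 (95% counting interval 1.14 to 1.74). Within GFP-low it rested on 23 counts against 11 and was 0.79 (interval -0.19 to 2.09). Of the 15 stem cell markers, beside which Slc1a2 stands in GFP-high, 1 rose and 4 fell under HFD by edgeR. Over all genes, edgeR called 2.15% higher and 2.93% lower. At an unadjusted p under 0.05, 1 marker was higher and 7 were lower, and DESeq2 called 1 higher and 1 lower. The median log2 ratio of the markers was -0.21.

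Slc7a8 (ENSMUSG00000022180, GRCm38 chromosome 14, 54722209 to 54781946), the basolateral exchanger, had 101 CPM under HFD against 64.7 CPM under control in GFP-high, and 269 against 180 CPM in GFP-low. Both fractions moved by nearly the same ratio, a log2 of 0.64 in GFP-high (interval 0.46 to 0.83) and 0.58 in GFP-low (interval 0.46 to 0.71). The joint rise was 1.53-fold (edgeR adjusted p 0.00441, DESeq2 adjusted p 0.0769). Slc3a2, its heavy chain, had a diet ratio of 1.21-fold that missed the threshold (edgeR adjusted p 0.180). Per kilobase, the ratio of Slc7a8 to Slc3a2 was 1.06 under HFD against 0.787 under control in GFP-high, and 1.33 against 1.11 in GFP-low.

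Slc6a4 (ENSMUSG00000020838, GRCm38 chromosome 11, 76998603 to 77032340), the serotonin carrier, had 35.6 CPM under HFD against 25.7 CPM under control in GFP-high, and 90.7 against 39.7 CPM in GFP-low. It rose 1.82-fold (log2 0.86 ± 0.17 SE, edgeR adjusted p 0.0141, DESeq2 adjusted p 0.117). The log2 ratio was 0.46 in GFP-high (interval 0.16 to 0.78) and 1.18 in GFP-low (interval 0.94 to 1.45). The enteroendocrine markers, whose cells make serotonin and other signals, summed to 101 CPM under HFD against 70.8 CPM under control in GFP-high, and to 528 against 1218 CPM in GFP-low.

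**Figure D3:**
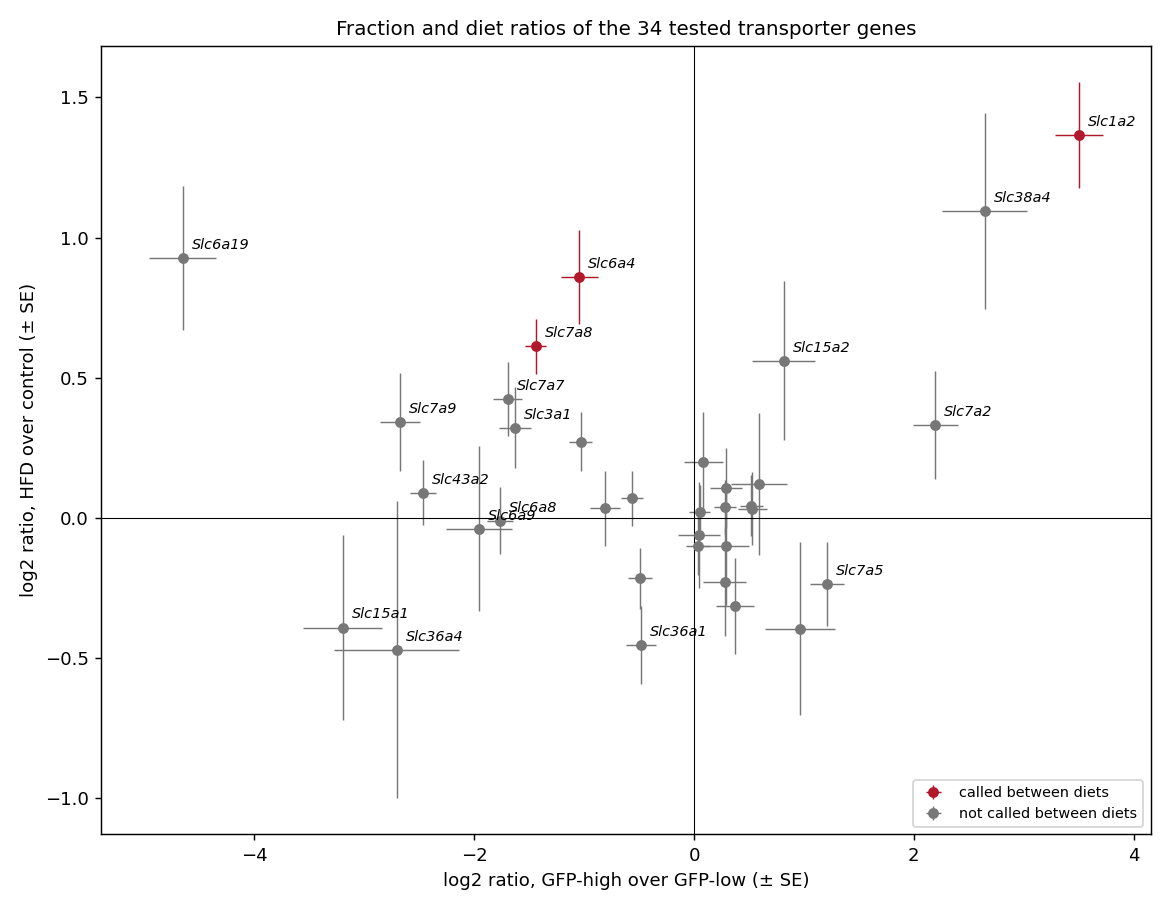
Log2 ratio for fraction (x axis, GFP-high over GFP-low) against log2 ratio for diet (y axis, HFD over control) of the 34 tested transporters, from the same fit, with bars of 1 SE. Slc1a2 lies at 3.50 and 1.37, Slc7a8 at -1.44 and 0.61 and Slc6a4 at -1.04 and 0.86, so the 3 genes called between diets include genes of either fraction.

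The other brush border and basolateral carriers of GFP-low stood mostly above control under HFD without passing the test. Slc6a19 was at 35.1 CPM under HFD against 18.4 CPM under control in GFP-low, with an interval of its log2 ratio from 0.54 to 1.33, and its joint log2 ratio of 0.93 ± 0.26 (SE) had an edgeR adjusted p of 0.0719. Slc7a7 (log2 ratio 0.42 ± 0.13 SE), Slc7a9 (0.34 ± 0.18 SE) and Slc3a1 (0.32 ± 0.14 SE) had edgeR adjusted p-values of 0.102, 0.318 and 0.247. Slc15a1, the peptide carrier, was below control, at 10.2 CPM under HFD against 13.2 CPM under control in GFP-low (joint log2 ratio -0.39 ± 0.33 SE, edgeR adjusted p 0.563). Slc36a1 was lower in both fractions, at 24.9 CPM under HFD against 37.7 CPM under control in GFP-high and 38.6 against 47.9 CPM in GFP-low (joint log2 ratio -0.45 ± 0.14 SE, edgeR adjusted p 0.0934). Slc43a2 hardly differed between diets, with a joint log2 ratio of 0.09 ± 0.12 (SE). The joint log2 ratio of Slc1a1 was 0.03 ± 0.13 (SE), but its fractions went opposite ways. Its log2 ratio was -0.23 in GFP-high (interval -0.46 to 0.003) and 0.27 in GFP-low (interval 0.07 to 0.47), a difference that was not tested. With no filter on low counts the test called Slc6a19 and Slc7a7 higher and Slc36a1 lower as well.

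Of 15 tested enterocyte markers, 8 rose under HFD and 0 fell by edgeR (3 lower at an unadjusted p under 0.05, 0 lower by DESeq2). The sum of the enterocyte markers in GFP-low was 9297 CPM under HFD against 4720 CPM under control. Goblet cell markers summed to 17986 CPM under HFD against 40927 CPM under control in GFP-low, and Paneth cell markers to 1134 against 2329 CPM. The part of these shifts in the transporter values was not tested. Of the 14 partners 2 rose under HFD and 0 fell by edgeR (4 higher and 0 lower at an unadjusted p under 0.05, 1 higher and 0 lower by DESeq2), Slc6a20a among them with 0.81 ± 0.16 on the log2 scale (SE, edgeR adjusted p 0.0134). Over all genes, edgeR called 2.15% higher and 2.93% lower, and 2118 of 10694 were at an unadjusted p under 0.05 in either direction. These shares are also the background for the peptidase and amino acid response counts below.

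Of the 19 peptidases, 5 rose under HFD and 0 fell by edgeR, with 3 lower at an unadjusted p under 0.05 and 0 lower by DESeq2. Mme, a membrane endopeptidase, had 491 counts under HFD against 158 under control in GFP-high, and 786 against 292 in GFP-low (log2 ratio 1.31 ± 0.11 SE, edgeR adjusted p 8.67e-05). The others were Naaladl1, Acy1, Mep1a and Enpep, with log2 ratios between 0.51 and 1.11, and DESeq2 called 3 of the 19. Of the 28 genes of the amino acid response 2 rose, Aldh18a1, an enzyme of proline synthesis (0.52 ± 0.10 SE, edgeR adjusted p 0.0151), and Cth, an enzyme of cysteine synthesis (0.61 ± 0.12 SE, edgeR adjusted p 0.0174), and neither was called by DESeq2. By edgeR 0 fell, with 5 of the 28 lower at an unadjusted p under 0.05 (0 by DESeq2), and the median log2 ratio was -0.10. Atf4 and Asns, the asparagine synthetase, were not called (log2 ratios -0.13 ± 0.09 and -0.17 ± 0.18 SE).

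Within a fraction, the diets were set side by side with 1 library each, by the same 2-fold rule and without a test. In GFP-high 2 transporters were higher under HFD, beside 0.645% of all genes, and 0 were lower, beside 1.33%. These were Slc1a2 and Slc38a4, and Slc38a4 had 79 counts under HFD against 30 under control (log2 ratio 1.05, interval 0.50 to 1.78). In the joint fit Slc38a4 stood at 1.10 ± 0.35 (SE, log2) and missed the threshold (edgeR adjusted p 0.107).

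In GFP-low 2 transporters were higher under HFD, beside 1.33% of all genes, and 2 were lower, beside 2.23%. The higher ones were Slc6a4 and Slc15a2, the peptide carrier, with 53 counts under HFD against 21 under control (log2 ratio 1.10, interval 0.42 to 1.98). The lower ones were Slc1a4, the serine and alanine carrier, with 24 counts against 53 (log2 ratio -1.22, interval -2.06 to -0.58), and Slc36a4 with 23 counts against 45 (-1.05, interval -1.92 to -0.37). In GFP-high Slc1a4 was at 109 counts under HFD against 83 under control (log2 ratio 0.11, interval -0.31 to 0.55). Slc36a4 went the other way in GFP-high, with 11 counts under HFD against 2 under control (log2 ratio 1.32, interval -0.01 to 5.40). The difference between fractions in the diet ratio cannot be tested with 1 library for each combination. Of the 34 transporters, 17 had the same sign of the diet ratio in both fractions. The share over all genes was not computed, so this count is not a result about the transporters.

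**Figure D4:**
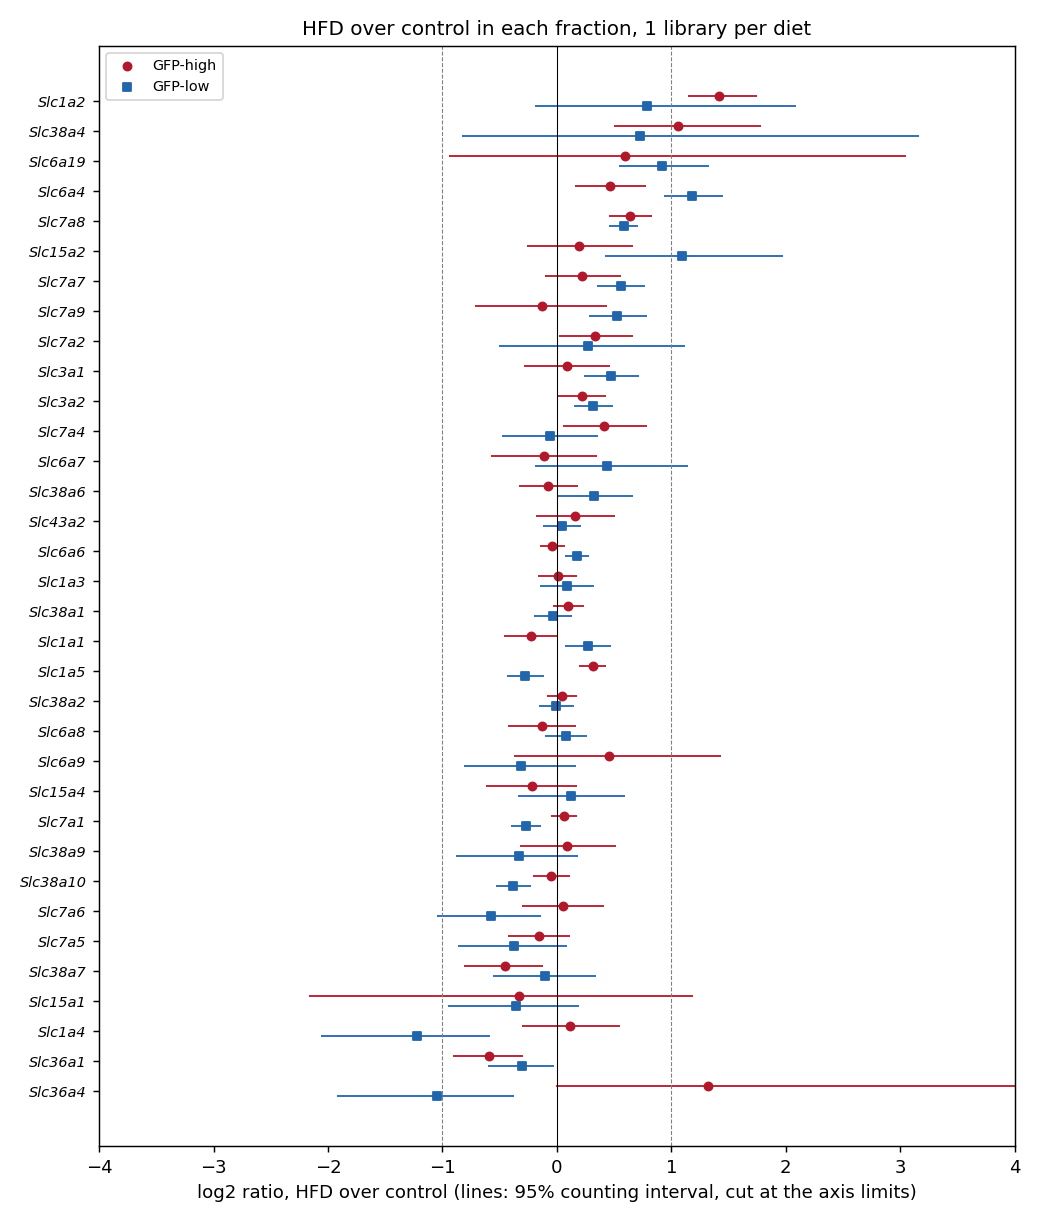
Log2 ratio of HFD over control for each tested transporter in GFP-high (circles) and GFP-low (squares), 1 library per diet and fraction; lines are 95% counting intervals and dashed lines mark 2-fold. Slc7a8 has nearly equal ratios of 0.64 and 0.58, while Slc1a4 stands at 0.11 in GFP-high and -1.22 in GFP-low.

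Per length, the transporters with the highest mean level over the 4 libraries were Slc1a5 with 39.9 RPKM, Slc6a6 with 32.9, Slc7a8 with 30.7, Slc3a2 with 27.1 and Slc38a10 with 20.4 RPKM. Slc1a5 led in both GFP-high libraries, at 52.3 RPKM (HFD) and 42.1 RPKM (control), against 29.5 RPKM (HFD) and 35.8 RPKM (control) in GFP-low. Slc7a8 led in the HFD GFP-low library with 53.8 RPKM, and Slc6a6 in the control GFP-low library with 36.9 RPKM, followed by Slc7a8 with 35.9 RPKM, a gap too small to rank with 1 library. All 66 genes together took 1902 CPM (HFD) and 1760 CPM (control) in GFP-high, against 2511 CPM (HFD) and 2317 CPM (control) in GFP-low.

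The 32 transporters below the filter held 18 with a few counts and 14 with 0 in every library. The one with the most reads, not set per length, was Slc7a11, the cystine exchanger that supplies glutathione synthesis, with 18 and 14 counts in GFP-high (HFD and control), against 6 and 16 in GFP-low. Slc38a11 had 2 and 1 counts in GFP-high, against 18 and 7 in GFP-low, and Slc43a1, a carrier of branched-chain amino acids, had 1 and 7 in GFP-high, against 3 and 15 in GFP-low (HFD and control in each). At 0 in every library were, among others, Slc15a3, a peptide carrier of immune cells, Slc6a3, the dopamine carrier, Slc7a10, Slc1a6 and Slc38a8. Ptprc, the pan-leukocyte gene, was at 0 counts in every library too.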

How the data were processed

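The deposited tables hold raw counts of reads per Ensembl gene in 4 libraries, which the authors did not normalize. Per the labels' protocols, poly(A) RNA and a dUTP strand-specific kit were used, and per the submitters' processing notes cutadapt, TopHat version 1.4.1 and HTSeq, on GRCm38 (mm10). Neither the annotation release nor the strand setting of the counting is given in the sources used here. Symbols matched 36345 of 38124 IDs, and exon lengths came from GENCODE release M21. Genes that reached 20 counts in 2 or more libraries entered edgeR version 4.0.16 (quasi-likelihood F-test, additive model of diet and fraction, TMM scaling, Benjamini-Hochberg adjustment over all 10694 genes) in R version 4.3.3. This leaves 1 residual degree of freedom, so that any diet effect that differs between fractions enters the error. Standard errors were computed from the ratio and the F statistic. Single-library ratios carry exact 95% intervals for 2 Poisson counts. DESeq2 version 1.42.0, other scalings, filters and models were the alternatives. Genes were named by whether they were called, met the 2-fold rule or stood highest per length. The members and lists were chosen with earlier results of these data known. Some genes of the lists are not reported here.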

Additional observations from a re-analysis of the deposited data

Results flagged for a closer look

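Slc1a5, the glutamine exchanger, moved in opposite directions with diet in the fractions, with counting intervals that excluded a ratio of 1 in each. It had 218 CPM under HFD against 176 CPM under control in GFP-high (log2 ratio 0.31, interval 0.19 to 0.43), and 123 against 149 CPM in GFP-low (-0.28, interval -0.44 to -0.12). The log2 ratios differ by 0.59. With 1 library for each combination the difference was not tested, and the intervals cover counting error only.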

How the results depend on the processing

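With 1 library per diet and fraction, leaving out a library leaves no residual degree of freedom, so the ratios within one diet or fraction stand in its place, and no replicate numbers exist to pair. Against 9 transporters higher in GFP-high, DESeq2 called 4 and the model without diet 5, while the 16 lower ones became between 12 and 17 over the 6 alternatives. The median fraction ratio of 0.04 became 0.23 with library totals and -0.44 with no filter, which adds 18 low genes. For diet, no filter gave 5 higher and 1 lower transporter, and DESeq2 and the model without fraction gave 0 higher. Under DESeq2 the sign for Slc6a9 turned from -0.04 to 0.037, and without fraction that for Slc6a8 turned from -0.01 to 0.029 (log2, neither called). For single libraries, adding 2 CPM left 1 higher in GFP-high and 1 higher and 1 lower in GFP-low between diets, and a 1.5-fold rule gave 1 lower in GFP-high. The other settings tried changed no count by over 1.5 times. The cause was not tested. Over all genes, 4940 calls between fractions became 2390 with DESeq2 and 2794 without diet, and 543 calls between diets became 1133 with no filter, 189 with DESeq2 and 0 without fraction (154 at an unadjusted p under 0.05).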
